A study of Mus musculus with 8 samples.

Results

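The complement genes C3, C1ra, C4b, C2, Cfb, Serping1, Cd55 and Cd59a were followed in immortalized mouse dental papilla cells of the floxed and the knock-out Bmp2 genotype. They were chosen by name, as 5 components of the cascade and 3 of its inhibitors, and are 8 of the 22609 gene symbols counted in each library. The iBmp2 fx/fx cells carry floxed Bmp2 alleles, in which the gene is flanked by recombination sites, and the iBmp2 ko/ko cells carry the Bmp2 knock out. They are called floxed and knock-out cells in the following. Total RNA was sequenced from each genotype after 6, 24, 48 and 72 h of culture, with 1 library per genotype and time, so that 8 libraries were available, 4 per genotype. Each genotype is represented by 1 immortalized cell line, and whether a line is a single clone is not given in the sources used here, so that the deletion and other differences between the lines cannot be told apart. As the libraries of a genotype differ in culture time, p values of fits without time measure the spread between these libraries, which includes any change with time. Where the genotypes are compared within each time, p values measure how their difference varies between the times.

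Complement is a cascade of plasma proteins that coats targets, attracts leukocytes and forms pores in membranes. In the classical pathway, the protease C1r of the C1 complex activates the protease C1s, which cleaves C4 and C2. In the alternative pathway, factor B, encoded by Cfb, forms the convertase together with C3, on which all routes converge. C1 inhibitor, encoded by Serping1, blocks C1r and C1s, while Cd55 speeds the decay of the convertases and Cd59a stops the assembly of the pore. The liver makes most of the circulating components, and fibroblasts and other mesenchymal cells also transcribe several of these genes, many of which are known to respond to interferons and inflammatory cytokines.

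The reads assigned to genes numbered 25890110 to 32415665 per library, and levels are given as CPM, in which the counts of a library are scaled to a common total. A level of 3 counts, taken as the smallest that can be read, corresponded to 0.0925 to 0.116 CPM. This floor covers counting error only. Bmp2 was covered by 1 read in all, at 24 h in the floxed cells, which left the genotype labels without a check by the deleted gene. Its transcript was thus under this floor in the floxed cells as well. The cell type was checked with markers. Of 12 markers of dental mesenchyme and fibroblasts, 11 were above 3 counts in every library, and Lhx8 was at or under 3 counts in all 8, as was the odontoblast marker Dspp. Of 11 leukocyte markers, 6 did not exceed 3 counts in any library, among them Ptprc, Itgam and the 3 subunit genes of C1q, and Emr1 and C1qa were at 0. The summed level of the leukocyte list ranged from 26.7 to 44.7 CPM in the 4 floxed libraries and from 25.3 to 45.7 CPM in the 4 knock-out libraries, with Cd14, Cd68 and Csf1r highest. In bulk RNA, fewer cells of a type and less RNA per cell cannot be told apart. The 24 h library labelled knock out went against its label. Of the 287 mRNAs that differed between the genotypes over 6, 48 and 72 h at the adjusted limit given below, it lay nearer to the floxed than to the knock-out mean (log2 of CPM plus 0.1) in 283, and the floxed library of 24 h did so in 270. The odontoblast marker Alpl, chosen here after its values were seen, had 13.0, 37.2, 50.6 and 60.3 CPM at 6, 24, 48 and 72 h in the floxed cells, 0.647, 0.556 and 1.35 CPM at 6, 48 and 72 h in the knock-out cells, and 13.3 CPM in the 24 h library labelled knock out. Whether this library is mislabelled could not be settled with Bmp2, and each ratio at 24 h and each value over all 8 libraries rests on its label. Of 13121 mRNAs that passed edgeR's filter on low values in the libraries of 6, 48 and 72 h, 26.6% differed between the genotypes with 1 sign at 6, 48 and 72 h and with the opposite sign at 24 h. The methods of the study name 6, 48 and 72 h, and the genotypes were compared over these 6 libraries, 3 per genotype, with the 24 h libraries given beside them.

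The promoters of C3, the most abundant of the 8 genes, and of C1ra, whose call in the blocked comparison held without each library in turn, are shown as the 250 bases before the start of the gene in the RefSeq table of GRCm38.p6. RefSeq promoters were matched for 4 of the 8 genes, C3, C1ra, Cd55 and Cd59a, and each had 1 exact match in mm9. In mm9, the C3 window is chr17:57367560-57367809 on the minus strand and the C1ra window is chr6:124462389-124462638 on the plus strand. Both are written 5′ to 3′, and capitals mark the letters of a C/EBP motif in C3. GENCODE M1 on mm9 places the start of C1ra earlier, at 124462423, so that most of the C1ra window lies inside its gene model. The C1ra window holds none of the 5 motifs searched before the start, and its matches lie in a stretch after the RefSeq start, chr6:124462655-124462679, in which capitals mark a C/EBP match on the other strand, followed by a GAS match.
C3: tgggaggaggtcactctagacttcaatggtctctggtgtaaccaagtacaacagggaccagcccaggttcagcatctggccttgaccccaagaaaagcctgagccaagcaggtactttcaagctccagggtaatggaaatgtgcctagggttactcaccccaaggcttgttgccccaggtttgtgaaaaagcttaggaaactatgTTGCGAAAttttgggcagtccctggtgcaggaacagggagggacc
C1ra before the start: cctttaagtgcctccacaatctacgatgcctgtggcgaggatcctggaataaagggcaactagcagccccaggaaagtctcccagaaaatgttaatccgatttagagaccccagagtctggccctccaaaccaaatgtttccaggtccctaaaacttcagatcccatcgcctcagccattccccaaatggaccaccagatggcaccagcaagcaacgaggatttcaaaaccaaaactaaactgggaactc
C1ra after the start: TTATGCAAatgcttcaTTCCCTGAA
The motifs were searched on both strands in windows from 250 bases before to 50 bases after the start. C/EBP (TTGCNNAA), a motif of CCAAT enhancer binding proteins, was found in the C3 window 45 bases before the start, in the C1ra window and in 10.8% of 32851 promoters of this length. GAS (TTCNNNGAA), bound by STAT dimers, was found in the C1ra window and in 8.3% of the promoters. The core of the interferon response element (GAAANNGAA) was found in the Cd59a window, 187 bases before the start, and in 8.56% of the promoters. The core of the NF-kB motif (GGANTTNCC) and the BMP response motif (GGCGCC) were found in none of the 4 windows and in 3.95% and 11.9% of the promoters. These matches describe letters in a window and not binding.

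Per length, C3 was the most abundant of the 8 genes in every library, and 4 components were transcribed well above the 3 inhibitors of this set. This order does not extend to inhibitor genes outside the set. C3 lies on chromosome 17 of mm9 (57343397 to 57367559, minus strand), where C4b (34865325 to 34880827), Cfb (34993319 to 34999463) and C2 (34999549 to 35035397) are also found on the minus strand. Per kilobase of exon (RPKM, CPM per kilobase), the mean over the floxed libraries of 6, 48 and 72 h was 74.7 ± 13.9 for C3, 17.2 ± 5.18 for C1ra, 15.9 ± 13.5 for C4b and 5.95 ± 1.82 for Cfb (SD, n = 3). The inhibitors were lower, with 1.23 ± 0.444 RPKM for Cd59a and 0.942 ± 0.328 RPKM for Serping1 (SD, n = 3). In the knock-out libraries the mean was 119 ± 105 RPKM for C3, 43.5 ± 21.5 for C1ra, 25.1 ± 27.5 for C4b, 20.3 ± 19.2 for Cfb, 1.32 ± 0.555 for Cd59a and 0.291 ± 0.235 for Serping1 (SD, n = 3). Of neighbours in this order, the libraries of C1ra and C4b overlapped in both genotypes, those of C3 and C1ra and of C4b and Cfb overlapped in the knock-out cells, and those of Cd59a and Serping1 overlapped in the floxed cells. Ranked by CPM among all symbols, C3 was between position 39, in the knock-out library of 48 h, and position 708, in the knock-out library of 6 h.

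**Figure D1:**
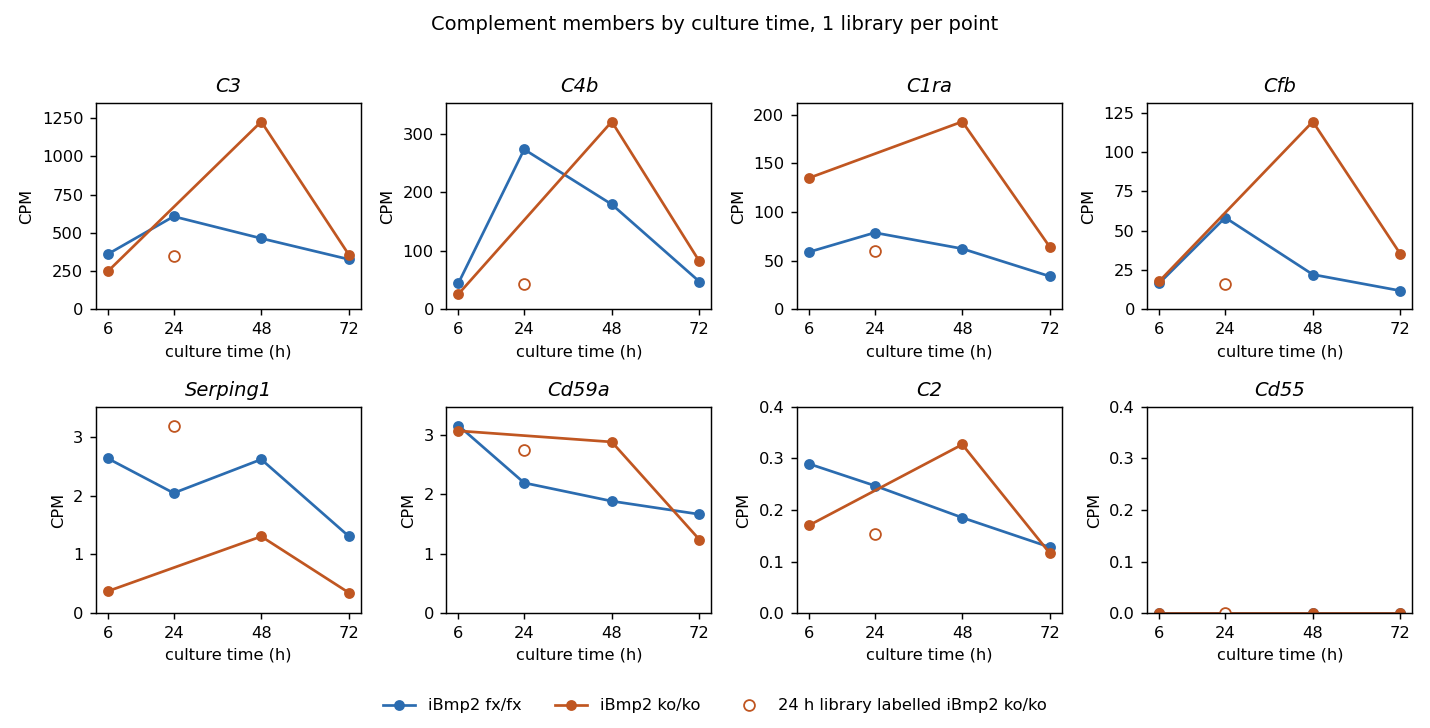
Level of each of the 8 genes (CPM, linear axes from 0) against culture time (h), 1 library per point, with floxed in blue, knock-out in orange and the 24 h library labelled knock out as an open circle that the line leaves out. In the knock-out cells C3 reached 1227 CPM and Cfb 119 CPM at 48 h, Serping1 lay below the floxed line at 6, 48 and 72 h, and Cd55 was at 0 throughout.

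Of the 8 genes, 6 passed the filter on low counts and were tested for genotype with edgeR. C1ra and Cfb were higher and Serping1 was lower in the knock-out cells, while C3, C4b and Cd59a did not pass a limit. At the unadjusted limit (absolute log2 fold change above 1, unadjusted p under 0.05), the cutoff of the study, 3 of the 6 genes passed in edgeR, beside 7.35% of all mRNAs tested. In limma, which the study names, 2 passed on log2 CPM and on log2 RPKM, beside 741 and 781 mRNAs. These were C1ra and Serping1, and Cfb did not pass. At the adjusted limit (absolute log2 fold change of at least 1, Benjamini-Hochberg adjusted p of at most 0.05) 0 of the 6 passed in edgeR and 1, C1ra, passed in DESeq2, beside 2.19% of all mRNAs in edgeR and 5.02% in DESeq2. With culture time as a block, which compares the genotypes within each time, the same 3 genes passed both limits, beside 8.45% of all mRNAs at the adjusted and 9.46% at the unadjusted limit. The median log2 fold change of the 6 genes was 0.67 without and 0.32 with the block, and that of all mRNAs tested was 0.03 and 0.02. The levels of 2 of the 6 genes, C1ra and Serping1, did not overlap between the genotypes over 3 libraries against 3, as was so for 19.3% of all mRNAs. Over 4 libraries against 4 this held for 0 of the 6, and for 3.51% of all mRNAs.

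C1ra encodes a protease of the C1 complex and lies on chromosome 6 (124462423 to 124473458, plus strand). At 6, 48 and 72 h it had 58.8, 62.2 and 33.8 CPM in the floxed cells, and 135, 193 and 63.8 CPM in the knock-out cells. The lowest knock-out library, of 72 h, was just above the highest floxed library, of 48 h. The mean was 51.6 ± 15.5 CPM in the floxed cells and 131 ± 64.7 CPM in the knock-out cells (SD, n = 3). This gave a log2 fold change of 1.34 ± 0.41 (SE) (adjusted p = 0.197 in edgeR) and an unadjusted p of 0.0125. With culture time as a block the log2 fold change was 1.26 ± 0.15 (SE) and the adjusted p 0.00154, and in DESeq2 without a block the adjusted p was 0.0333. C1ra passed the adjusted limit of the blocked fit without each of the 6 libraries in turn, at log2 fold changes from 1.06 to 1.40. Without the block, leaving out the knock-out library of 48 h gave a log2 fold change of 0.94, which is under the limit, and leaving out that of 72 h gave 1.64 with an adjusted p of 0.0379 in edgeR. At 24 h the order was the opposite, with 78.7 CPM in the floxed library and 60.2 CPM in the library labelled knock out. Over all 8 libraries the log2 fold change was 0.94 ± 0.39 (SE) with an adjusted p of 0.483 in edgeR.

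C1ra shares sequence with its neighbour C1rb, as 47.5% of the windows of 50 bases, the read length in the labels, of its transcript also occur in C1rb. Reads with several positions were set aside in the counting, so that both genes are undercounted and the split between them is uncertain. C1rb had 7 to 18 reads in the floxed libraries and 11 to 47 in the knock-out libraries. C1s, the partner protease of C1r, lies on the minus strand (124480363 to 124586998), where its span overlaps that of C1rb (124462790 to 124531062, plus strand), and shares 24.3% of its windows with Gm5077. It had 145, 211 and 64.6 CPM at 6, 48 and 72 h in the floxed cells and 301, 599 and 129 CPM in the knock-out cells. The knock-out library was higher at each of the 3 times, although the groups overlapped. The log2 fold change of C1s was 1.30 ± 0.60 (SE, adjusted p = 0.403 in edgeR), and with the block it was 1.19 ± 0.13 (SE, adjusted p = 0.00116). At 24 h C1s had 182 CPM in the floxed library and 143 CPM in the library labelled knock out, and over all 8 libraries with the block its call was lost, at 0.81 ± 0.30 (SE, adjusted p = 0.167 in edgeR). C1rl, a related protease gene on the same stretch (124443131 to 124460661, plus strand) with no shared windows, had a log2 fold change of 0.99 ± 0.46 (SE, adjusted p = 0.404 in edgeR), and 0.90 ± 0.19 (SE, adjusted p = 0.0152) with the block, which is under the fold limit. Its order at 24 h was also the opposite, with a log2 ratio of -0.31. Per kilobase, the ratio of C1s to C1ra was between 1.65 and 2.92 in the 8 libraries, and that of C1rl to C1ra between 0.178 and 0.269. The median log2 fold change of the 610 mRNAs tested on chromosome 6 was 0.22.

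Cfb, encoding factor B of the alternative pathway, had 16.7, 22.0 and 11.7 CPM at 6, 48 and 72 h in the floxed cells, and 17.9, 119 and 35.0 CPM in the knock-out cells. The 6 h libraries were close to each other, whereas those of 48 and 72 h lay apart, and the groups overlapped. The means were 16.8 ± 5.15 and 57.4 ± 54.2 CPM (SD, n = 3). Its log2 fold change was 1.78 ± 0.66 (SE, adjusted p = 0.288 in edgeR) at an unadjusted p of 0.0300. With the block it was 1.40 ± 0.39 (SE, adjusted p = 0.0372). This call rested on single libraries. Without the library of 48 h it was lost, at a log2 fold change of 0.84 (adjusted p = 0.0867) for the floxed and 0.85 (adjusted p = 0.13) for the knock-out library. Without the knock-out library of 72 h the log2 fold change was 1.27 with an adjusted p of 0.146 in edgeR. Without the floxed or the knock-out library of 6 h it was 2.01 or 2.04. At 24 h Cfb had 58.2 CPM in the floxed library, 3.60-fold the level of 16.2 CPM in the library labelled knock out, and over all 8 libraries the log2 fold change was 0.79 ± 0.71 (SE, adjusted p = 0.687 in edgeR).

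Serping1, encoding C1 inhibitor, lies on chromosome 2 (84605544 to 84615601, minus strand) and was read at low depth. It had 82, 85 and 41 reads at 6, 48 and 72 h in the floxed cells, and 11, 40 and 9 reads in the knock-out cells. These correspond to 2.64, 2.62 and 1.31 CPM and to 0.374, 1.31 and 0.348 CPM. The knock-out library was lower at each of the 3 times, and the highest of them, of 48 h, was at 1.308 CPM against 1.310 CPM in the lowest floxed library, of 72 h, so that the groups were barely separate. The mean was 2.19 ± 0.762 CPM in the floxed cells and 0.677 ± 0.547 CPM in the knock-out cells (SD, n = 3). The difference on the log2 scale was -1.67 ± 0.60 (SE, adjusted p = 0.268 in edgeR) at an unadjusted p of 0.0257, and -1.79 ± 0.38 (SE, adjusted p = 0.0157) with the block. In the blocked fit the call was lost without the floxed library of 6 h (log2 fold change -1.35, adjusted p = 0.0520) and without the knock-out library of 72 h (-1.78, adjusted p = 0.0509). At 24 h the order was the opposite, with 2.05 CPM in the floxed library and 3.20 CPM, the highest of all 8 libraries, in the library labelled knock out. Over all 8 libraries the log2 fold change was -0.74 ± 0.65 (SE, adjusted p = 0.677 in edgeR). Per kilobase, the ratio of C1ra to Serping1, the protease to its inhibitor, was 17.3 to 20 in the floxed libraries of 6, 48 and 72 h and 114 to 279 in the knock-out libraries of these times. It was 29.8 in the floxed library of 24 h and 14.6 in the library of 24 h labelled knock out.

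**Figure D2:**
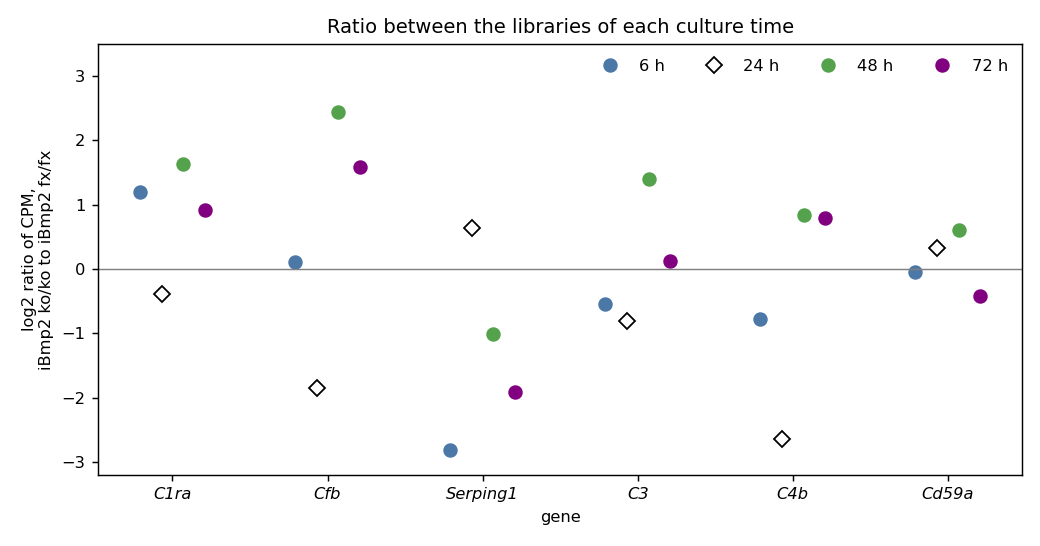
The log2 ratio of CPM between the knock-out and the floxed library (vertical axis) of 6 genes, 1 point per culture time, with the 24 h ratio as an open diamond. C1ra and Cfb lay above 0 and Serping1 below 0 at 6, 48 and 72 h, and at 24 h these 3 genes lay on the other side, at -0.39, -1.85 and 0.64.

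The sign of the difference at 24 h was opposite to that shared by 6, 48 and 72 h in 3 of the 6 genes tested, C1ra, Cfb and Serping1, beside 26.6% of all mRNAs. The 24 h libraries have no replicate, so this difference between times was not tested. In the fit over all 8 libraries, 0 of the 6 genes passed either limit, with or without the block. Of all mRNAs, 0% passed the adjusted and 3.55% the unadjusted limit without the block, and 0.253% and 5.08% with it.

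C3 did not pass a limit in the genotype comparison. It had 361, 463 and 326 CPM at 6, 48 and 72 h in the floxed cells and 248, 1227 and 356 CPM in the knock-out cells. The knock-out library of 48 h was far above all the others, whereas those of 6 and 72 h lay near the floxed libraries. This library of 48 h also had the highest share of alignments on no gene, 12.5% against 8.22 to 10.7% in the other libraries. Whether this bears on its levels was not tested. The means were 383 ± 71.3 and 610 ± 537 CPM (SD, n = 3), and the log2 fold change was 0.68 ± 0.57 (SE, adjusted p = 0.681 in edgeR). Without the knock-out library of 48 h it was -0.32. With the block it was 0.33 ± 0.32 (SE, adjusted p = 0.489). At 24 h, C3 had 607 CPM in the floxed library and 348 CPM in the library labelled knock out.

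C4b, encoding C4 of the classical pathway, had a 12.4-fold range over culture times in the knock-out cells. It had 44.7, 179 and 47.2 CPM at 6, 48 and 72 h in the floxed cells and 26.0, 321 and 81.9 CPM in the knock-out cells. The knock-out library was lower at 6 h and higher at 48 and 72 h. Its log2 fold change was 0.67 ± 0.91 (SE, adjusted p = 0.820 in edgeR), and 0.31 ± 0.29 (SE, adjusted p = 0.475) with the block. At 24 h the floxed library had 274 CPM, 6.27-fold the 43.6 CPM of the library labelled knock out, and over all 8 libraries the log2 fold change was -0.21. C4b shares 35.2% of its windows of 50 bases with C4a, which was counted at 45 to 67 reads in the floxed and 37 to 59 reads in the knock-out libraries, so that the counts of both leave out shared reads.

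**Figure D3:**
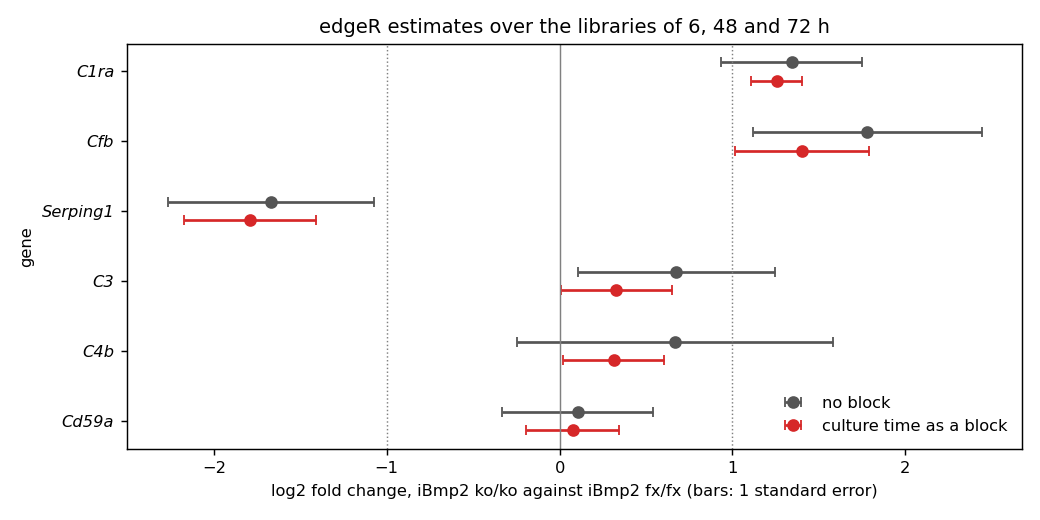
The log2 fold change of knock-out against floxed cells (horizontal axis) for the 6 genes tested, from edgeR over 6 libraries without a block (grey) and with culture time as a block (red), with bars of 1 standard error and dotted lines at the fold limit. The bars of C1ra narrowed from 0.41 to 0.15 with the block, and the estimates of C3 and C4b fell from 0.68 to 0.33 and from 0.67 to 0.31.

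Cd59a, encoding an inhibitor of the membrane pore, lies on chromosome 2 (103935958 to 103955511, plus strand). It had 98, 61 and 52 reads at 6, 48 and 72 h in the floxed cells and 90, 88 and 32 reads in the knock-out cells, with 62 and 71 reads in the 24 h libraries. The genotypes overlapped, with means of 2.23 ± 0.805 and 2.39 ± 1.01 CPM (SD, n = 3). The log2 fold change was 0.10 ± 0.44 (SE, adjusted p = 0.948 in edgeR), and its interval of 1 standard error ran from -0.33 to 0.54. With the block it was 0.08 ± 0.27 (SE, adjusted p = 0.861). The paralog Cd59b, which shares 3.98% of the windows of Cd59a, had at most 5 reads in any library.

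C2 and Cd55 did not pass the filter. C2, which supplies the protease part of the classical convertase, had 9, 7, 6 and 4 reads at 6, 24, 48 and 72 h in the floxed cells and 5, 4, 10 and 3 reads in the knock-out cells. Summed over 6, 48 and 72 h this is 0.200 CPM (95% exact Poisson interval 0.121 to 0.313) in the floxed and 0.210 CPM (0.124 to 0.331) in the knock-out cells, so that no difference was detectable at this depth. C2 and Cfb lie 85 bases apart on the same strand, and per kilobase the highest C2 level, 0.0805 RPKM, was below the lowest Cfb level, 4.15 RPKM. The annotation holds a read-through model, Gm20547, that shares exon bases with both and is no row of the gene table, and 161 bases of C2 exons overlap Zbtb12 on the opposite strand. The strand setting of the counting is not given in the sources used here. Cd55 lies on chromosome 1 (132335604 to 132359321, minus strand) and had 0 of 234943108 counted reads over the 8 libraries, where 3 counts correspond to 0.0128 CPM and the 95% exact Poisson interval reaches 0.0157 CPM. Its paralog Daf2, which shares 13.3% of the windows of Cd55, was also at 0 in every library.

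Over 6, 48 and 72 h, C3, C1ra, C4b and Cfb, 4 of the 6 genes tested, were highest at 48 h in both genotypes, beside 12.9% of all mRNAs. With culture time as a factor of 3 levels and genotype in the model, the same 4 genes passed an adjusted p of 0.05 in edgeR, beside 41.1% of all mRNAs, but this test was chosen after the levels at 48 h had been seen and is no independent support for them. The trend with time that was planned called none of them, as given below. The adjusted p was 0.0394 for C3, 0.00627 for C1ra, 0.00324 for C4b and 0.0419 for Cfb, and it was 0.101 for Serping1 and 0.0911 for Cd59a. The log2 difference of 48 h from 6 h was 2.77 for C4b, 1.58 for Cfb, 1.39 for C3 and 0.34 for C1ra. From 6 to 72 h it was -0.86 for C1ra and 0.86 for C4b, while it was 0.20 for both C3 and Cfb.

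Including the 24 h libraries, C3, C1ra, C4b and Cfb were highest at 24 h in the floxed cells and at 48 h in the knock-out cells. For these 4 genes the 24 h library labelled knock out had 348 CPM for C3, 60.2 for C1ra, 43.6 for C4b and 16.2 for Cfb. Those of C1ra and Cfb were below the knock-out libraries and within the floxed libraries of 6, 48 and 72 h, that of C3 was within both, and that of C4b was within the knock-out libraries and just below the lowest floxed one. The floxed library of 24 h was above all other floxed libraries in these genes. In the floxed cells the level at 24 h was 1.68-fold that at 6 h for C3, 1.34-fold for C1ra, 6.12-fold for C4b and 3.49-fold for Cfb. In the knock-out cells the level at 48 h was 4.94-fold that at 6 h for C3, 1.43-fold for C1ra, 12.4-fold for C4b and 6.66-fold for Cfb. From 48 to 72 h the level fell in both genotypes, to the point that the 48 h level was 3.80-fold the 72 h level for C4b in the floxed and 3.92-fold in the knock-out cells. These folds have no replicate.

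A trend with the log2 of culture time, with genotype in the model, was not called for any of the 6 genes in edgeR or DESeq2. In edgeR it was called for 0% of all mRNAs at the adjusted limit, whereas 2775 of 13121 had an unadjusted p under 0.05, of which 0 were among the 6 genes, and DESeq2 called 986. A trend of this kind does not describe a course with its highest level in the middle. An interaction of genotype with the log2 of culture time was called for 0% of all mRNAs in edgeR, 63 of 13121 had an unadjusted p under 0.05, and again 0 of these were among the 6 genes. The unadjusted p of the interaction was lowest for Cfb, at 0.194. With 1 library per genotype and time, a difference between the genotypes in a course of that shape was not tested.

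Of the 6 genes, C3, C4b and Cfb followed each other most closely over the 7 libraries without the 24 h library labelled knock out. On log2 CPM (prior count of 2), Pearson's r was 0.89 between C3 and C4b, 0.89 between C3 and Cfb and 0.82 between C4b and Cfb, and it was 0.53 between C3 and C1ra. The values of Serping1 had an r of -0.27 with C1ra, 0.02 with Cfb and 0.38 with C3. These are descriptions over 7 libraries that share culture time and genotype. Among 12060 genes with a mean of at least 1 CPM, the 3 most like C3 were Atl3 (r = 0.984), Rad50 (r = 0.981) and Fbxo38 (r = 0.979). Their levels spanned less, for example from 228 to 421 CPM for Atl3 over all 8 libraries. The 3 most like Serping1 were Dlg1 (r = 0.996), Baz2b (r = 0.994) and F2r (r = 0.993), and Dlg1 spanned from 133 to 243 CPM.

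The rest of the pathway was read with a list of 45 other complement genes, of which 44 were in the gene table. Of these 44, 9 had 0 reads in every library, 25 exceeded 3 counts in at least 1 library, and 16 passed the filter. Among the 16, the classical pathway was represented by C1s, C1rb, C1rl and C4a, the lectin pathway by Masp1, Masp2 and Colec12, the alternative pathway by Cfp, the terminal pathway by C8g, the inhibitors by Cd46, Cr1l, Clu, C1qbp and others, and the receptors by Itgb2 and Cd93. The C1q subunit genes and C6, C8a, C8b and C9 of the pore did not pass. At the unadjusted limit 2 of the 16 passed, 1 higher (Itgb2) and 1 lower (Masp1) in the knock-out cells, beside 7.35% of all mRNAs. At the adjusted limit 0 of the 16 passed in edgeR and 1, Masp1, passed in DESeq2, beside 2.19% and 5.02% of all mRNAs. With the block 3 passed the adjusted limit, C1s and Itgb2 higher and Masp1 lower, beside 8.45% of all mRNAs. The median log2 fold change of the 16 was 0.36 without and 0.35 with the block.

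Masp1, a protease of the lectin pathway, kept its order between the genotypes at all 4 times. It had 16.0, 46.7, 60.8 and 37.5 CPM at 6, 24, 48 and 72 h in the floxed cells and 3.40, 14.1, 8.30 and 12.5 CPM in the knock-out cells. The 4 libraries of each genotype did not overlap, and it was the 1 gene of the 16 for which this was so, beside 3.51% of all mRNAs. Its log2 fold change was -2.23 ± 0.62 (SE, adjusted p = 0.155 in edgeR) without the block and -2.22 ± 0.24 (SE, adjusted p = 0.0011) with it. Over all 8 libraries it was -2.07 ± 0.51 (SE, adjusted p = 0.483 in edgeR) without the block and -2.10 ± 0.24 (SE, adjusted p = 0.0427) with it. Itgb2, the integrin chain shared by the complement receptors of leukocytes, had 1.61, 2.31 and 0.575 CPM at 6, 48 and 72 h in the floxed cells and 3.40, 9.19 and 1.78 CPM in the knock-out cells. Its groups overlapped, and its log2 fold change was 1.68 ± 0.71 (SE, adjusted p = 0.351 in edgeR), or 1.58 ± 0.26 (SE, adjusted p = 0.00601) with the block. At 24 h it had 1.87 CPM in the floxed library and 1.43 CPM in the library labelled knock out, and over all 8 libraries with the block its call was lost, at 1.09 ± 0.43 (SE, adjusted p = 0.181 in edgeR). Of the 16 genes, 7 had the opposite sign at 24 h to that shared by 6, 48 and 72 h, beside 26.6% of all mRNAs. The summed leukocyte markers given above overlapped between the genotypes, but most of the sum was Cd14. At 6, 48 and 72 h Cd14 had 38.1, 29.9 and 22.3 CPM in the floxed libraries. In the knock-out libraries it had 37.6, 42.0 and 22.4 CPM, with overlap. At these times Cd68 was lower in the knock-out cells without overlap, with 5.31, 12.2 and 3.07 CPM in the floxed and 2.65, 2.81 and 2.12 CPM in the knock-out libraries. So was Csf1r, with 1.03, 1.85 and 1.02 against 0.238, 0.588 and 0.425 CPM. Of all mRNAs, 19.3% did not overlap. At 24 h Cd68 had 4.80 CPM in the floxed library and 5.67 CPM in the library labelled knock out, and Csf1r had 0.671 and 0.578 CPM. Over 6, 48 and 72 h the direction of Cd68 and Csf1r was opposite to that of Itgb2, and the part of such cells in this result was not tested.

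**Figure D4:**
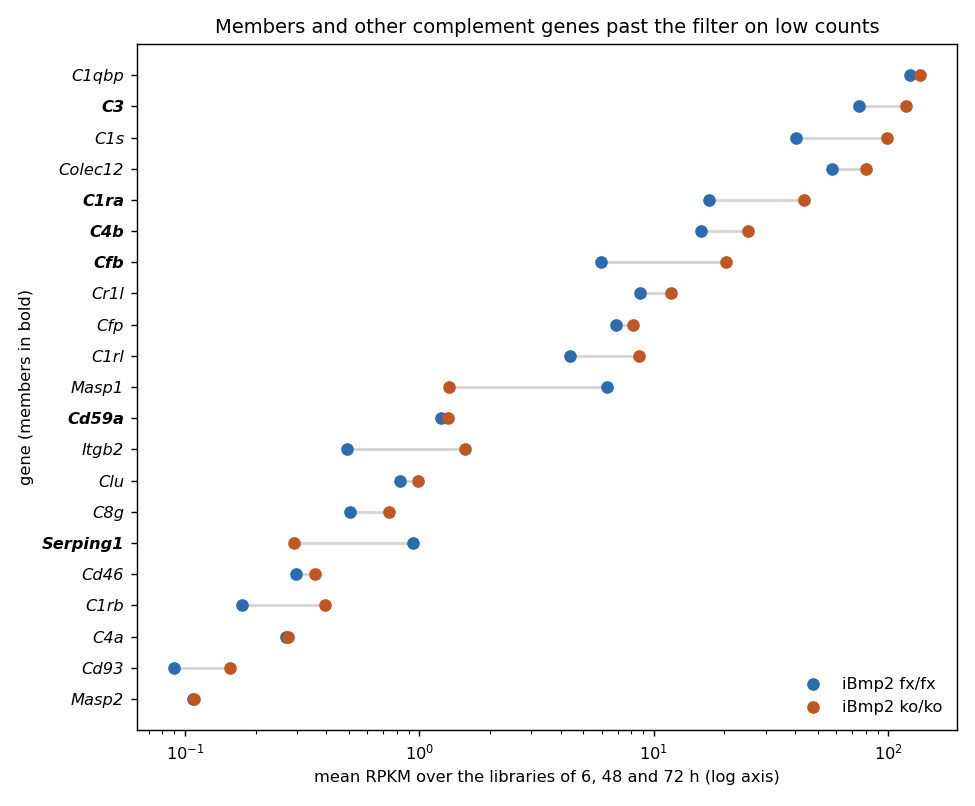
Mean RPKM (log axis) of the 6 tested genes of the set (bold) and of other complement genes that passed the filter, as a mean over the libraries of 6, 48 and 72 h, with floxed in blue, knock-out in orange and a grey line between the means, without error bars. C3 stood at 74.7 and 119 RPKM near the top. Serping1 at 0.942 and 0.291 RPKM and Masp1 at 6.33 and 1.34 RPKM were the genes shown whose floxed mean lay clearly to the right.

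Known regulators of complement transcription were read from a list of 26 genes of interferon, NF-kB, C/EBP and interleukin 6 signalling, of which 22 were tested. At the unadjusted limit 5 of the 22 passed, 3 higher and 2 lower in the knock-out cells, beside 7.35% of all mRNAs. With the block the same 5 passed both limits, beside 8.45% of all mRNAs at the adjusted and 9.46% at the unadjusted limit. Over all 8 libraries 0 of the 22 passed the adjusted limit, with or without the block. At the adjusted limit without the block over the 6 libraries 1 passed, beside 2.19% of all mRNAs. This was Cebpa, which encodes C/EBP alpha. It had 13.5, 23.8 and 10 CPM at 6, 48 and 72 h in the floxed cells and 3.13, 2.65 and 2.32 CPM in the knock-out cells, a log2 fold change of -2.54 ± 0.37 (SE, adjusted p = 0.0213 in edgeR). The groups lay apart at these times, but the library of 24 h labelled knock out had 12.2 CPM, next to 10.6 CPM in the floxed library of 24 h.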

How the data were processed

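Total RNA libraries of the floxed (iBmp2 fx/fx) and knock-out (iBmp2 ko/ko) cells were made with an Illumina TruSeq kit. The authors aligned the reads to mm9 with TopHat2 2.0.8b, counted them with HTSeq and deposited raw counts per gene symbol, without normalization. CASAVA 1.8.2 is also named in the submitters' processing notes. The annotation and strand setting of the counting are not given in the sources used here. The series text gives another earliest time than the 6 h of the labels, and the study's methods name paired reads where the labels name single-end reads. The 5 HTSeq summary rows were left out of library sizes. Alignments with several positions were 41.3 to 49.6% and those on no gene 8.22 to 12.5% of all alignments, which lowers the counts of genes with near-identical copies. The 8 lncRNA tables were not used. No libraries held identical counts.

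Groups and times came from the labels. Genotype was tested with edgeR 4.0.16 in R 4.3.3 (TMM scaling, filter of at least 10 counts and 15 in total, quasi-likelihood test, Benjamini-Hochberg adjustment over all 13121 mRNAs). The standard errors given for edgeR were derived, as the absolute log2 fold change over the square root of the F statistic of this test. Deviations from the genotype means, correlated across genes, had r = 0.713 at 6 h, 0.535 at 48 h and 0.840 at 72 h between libraries of the same time, so that culture times pair the libraries and the blocked fit is given where it changes a call. The alternatives were DESeq2 1.42.0, limma 3.58.1 on log2 CPM (offset 0.5) and log2 RPKM (offset 0.1), other size factors, other filters, all 8 libraries, culture time in hours and leaving out each library. The blocked fit without each library, 7 libraries and culture time as a factor were added after seeing the data. Named were the 8 genes, other complement genes past a limit, C1s and paralogs, regulators past the adjusted limit, and the 3 genes most like C3 and Serping1. Some genes of the lists are counted but not reported here by name. The genes and lists were chosen with earlier results of these data known. The tests of genotype without a block, of trend and of interaction were tried on simulated counts with a single fixed dispersion. The blocked fit was not, and such counts do not show the error of the tests in these data. Locations are from GENCODE M1 on mm9, which held 95.7% of the symbols, and windows of 50 bases were compared between transcripts. Python 3.11.15 with numpy 2.4.6, pandas 2.3.3, scipy 1.17.1 and matplotlib 3.10.9 made the summaries.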

Additional observations from a re-analysis of the deposited data

Results flagged for a closer look

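Among 14 sets of 4 libraries, 1 held a library far from the rest. C3 in the knock-out cells had 1227 CPM at 48 h, and its gap to the next library was 0.890 of the range of the 4 libraries, above Dixon's 95% critical value of 0.83. Chance alone marks about 1 in 20 such sets, and the 4 libraries differ in culture time.

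The ratio of the knock-out to the floxed library at 24 h had the opposite sign to those of 6, 48 and 72 h for 3 genes. The log2 ratio at 24 h was -0.39 for C1ra, -1.85 for Cfb and 0.64 for Serping1. The difference was not tested, as each genotype has 1 library at 24 h.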

How the results depend on the processing

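The 287 mRNAs at the adjusted limit became 0 over all 8 libraries, 1109 with culture time as a replicate block, 33 with the block over all 8 libraries, 659 in DESeq2 and 144 with at least 10 counts in every library. Leaving out each library gave 9 to 378 without and 976 to 1283 with the block (1025, 1060 and 1283 without the floxed library of 6, 48 and 72 h, and 1042, 976 and 1092 without the knock-out one). The 964 at the unadjusted limit became 463 over all 8 libraries and, with the block, 1475 without the floxed and 1452 without the knock-out library of 72 h. Of the 6 complement genes tested, the 0 at the adjusted limit became 3 with the block, 1 in DESeq2, 0 to 1 without each library and 1 to 3 with the block and without each library. The 3 at the unadjusted limit became 0 over all 8 libraries, 0 with the block over all 8 libraries, 1 to 2 without each library and 2 to 3 with the block and without each library. In limma on log2 CPM and on log2 RPKM they became 2, C1ra and Serping1. Of the other complement genes, the 0 at the adjusted limit became 3 with the block, 1 with the block over all 8 libraries, 1 in DESeq2 and 3 to 4 with the block and without each library. The 2 at the unadjusted limit became 4 with the block, 1 in limma on log2 CPM, 1 in limma on log2 RPKM and 1 with total counts as the scale. They became 1 to 5 without each library, and 3 to 6 with the block as well. The trend with culture time, called for 0 mRNAs, became 1 over all 8 libraries, 4 with time in hours, 986 in DESeq2, 5389 with time as a factor and 0 to 196 without each library. For the complement genes tested, its 0 became 4 with time as a factor. The causes of these differences were not tested.

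The log2 fold changes of C1ra, Cfb and Serping1 kept their direction under all alternatives run, from 0.85 to 1.64, from 0.63 to 2.21 and from -2.57 to -0.74. With at least 10 counts in every library Serping1 was not tested. That of C3 ranged from -0.32 to 1.06 when a library was left out, and to -0.21 with the block without the floxed library of 48 h and -0.20 without the knock-out library of 48 h. That of C4b was -0.21 over all 8 libraries, -0.39 with the block over all 8 libraries and from -0.71 to 1.63 without a library. That of Cd59a ranged from -0.087 to 0.39 without a library, and was -0.21 and -0.20 with the block without the floxed or knock-out library of 48 h. The slope per doubling of time ranged, without each library, from -0.027 to 0.44 for C3, from -0.18 to 0.0062 for C1ra, from -0.080 to 0.55 for Cfb and from -0.21 to 0.23 for Serping1. For Serping1 it was -0.058 over all 8 libraries and -0.00438 per hour.

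With 3 libraries per genotype and 1 line each, the precision is limited by their number. C2 and Cd55 are limited by depth, and Serping1 rests on 9 to 85 reads per library. C1ra and C4b lack reads that fit their paralogs as well.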
